A study of Mus musculus with 3 samples.

Results

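Immediate early transcription factors are the first regulators that a cell transcribes after a stimulus, and 10 of them are described here among the 34099 genes measured in mouse liver by single-cell RNA sequencing. They were chosen by symbol: Fos and Fosb, Jun, Junb and Jund, Atf3, Egr1, Ier2, Nr4a1 and Nr4a2. Each symbol matched 1 row of the count matrices. The identifiers in the matrices are ENSMUSG00000021250 for Fos, ENSMUSG00000003545 for Fosb, ENSMUSG00000052684 for Jun, ENSMUSG00000052837 for Junb, ENSMUSG00000071076 for Jund, ENSMUSG00000026628 for Atf3, ENSMUSG00000038418 for Egr1, ENSMUSG00000053560 for Ier2, ENSMUSG00000023034 for Nr4a1 and ENSMUSG00000026826 for Nr4a2.

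All mice had received 500 mg/kg of paracetamol (acetaminophen, APAP), which kills hepatocytes around the central veins. At 6 h they were given mesenchymal stromal cells (MSCs) engineered with bispecific polyvalent peptides, native MSCs, or PBS, and the livers were taken after 4 days. The labels give neither strain nor age nor the source of the MSCs, and no uninjured liver was analysed here. Each group was 1 mouse and 1 library, so the variation from mouse to mouse is unknown. No test was made, and every interval below covers counting error only. After filtering, 9129 cells of the engineered MSC library, 9179 of the native MSC library and 9537 of the PBS library were kept, with a median of 3667, 5673 and 5783 unique molecular identifiers (UMIs, counted transcripts) per cell. The libraries shared between 39 and 46 cell barcodes in each pair. Clusters were named after the cell type their transcripts resembled, and the injected MSCs were not identified. In hepatocyte-like cells all 10 hepatocyte markers were at least 2-fold above the other cells in each library, and so were all 10 neutrophil markers in neutrophil-like cells all 11 macrophage markers in macrophage-like cells and all 8 markers of B cells and of T cells in theirs. Fewer passed for classical monocytes in the native MSC library (8 of 9), for sinusoidal endothelium in the PBS library (7 of 8), for type 1 dendritic cells in the PBS library (4 of 6) and for type 2 dendritic cells in the engineered MSC library (5 of 7), and no marker was at 0.

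Fos and Fosb pair with the 3 Jun proteins as AP-1, a leucine zipper factor that binds the sites of many growth, wound and cytokine genes. Their promoters are held ready by factors such as SRF and CREB, which kinases activate, so that transcription starts with no new protein. Atf3 is a leucine zipper factor of the ATF family that stress also raises. Egr1 is a zinc finger factor and Ier2 a small nuclear protein, while Nr4a1 and Nr4a2 are nuclear receptors with no known natural hormone. In liver these genes are known for the early phase of regeneration and injury. They are also known to be raised when tissue is digested with warm enzymes, and all 3 livers here were dissociated warm, at 37 °C over some 40 min. No library made without that step was analysed here, so what the liver held and what digestion added cannot be told apart in any level below.

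The stretches just upstream of the transcription start are shown for the 6 genes in which the core of the cyclic AMP response element, the letters CREB and ATF factors bind, was found. Capitals mark TGACG or its reverse complement CGTCA. Each line ends at the base before the start and holds 150 bases, 5′ to 3′ on the strand of the gene, from RefSeq on GRCm38.p6. The Fos stretch is chr12:85473740-85473889 (plus strand), the Fosb stretch chr7:19310046-19310195 (minus), the Junb stretch chr8:84978749-84978898 (minus), the Atf3 stretch chr1:191183334-191183483 (minus), the Nr4a1 stretch chr15:101266696-101266845 (plus) and the Nr4a2 stretch chr2:57124004-57124153 (minus).
Fos: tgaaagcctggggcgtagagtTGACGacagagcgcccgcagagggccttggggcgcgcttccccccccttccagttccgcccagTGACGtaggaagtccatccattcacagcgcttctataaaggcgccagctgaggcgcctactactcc
Fosb: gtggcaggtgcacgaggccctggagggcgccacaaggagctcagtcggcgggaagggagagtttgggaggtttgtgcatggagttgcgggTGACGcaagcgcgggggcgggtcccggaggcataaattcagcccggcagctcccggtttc
Junb: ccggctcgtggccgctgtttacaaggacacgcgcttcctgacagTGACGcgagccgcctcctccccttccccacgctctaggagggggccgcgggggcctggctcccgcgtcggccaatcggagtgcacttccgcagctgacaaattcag
Atf3: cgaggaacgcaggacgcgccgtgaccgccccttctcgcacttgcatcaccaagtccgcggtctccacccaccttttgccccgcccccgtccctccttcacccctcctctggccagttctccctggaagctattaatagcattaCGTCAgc
Nr4a1: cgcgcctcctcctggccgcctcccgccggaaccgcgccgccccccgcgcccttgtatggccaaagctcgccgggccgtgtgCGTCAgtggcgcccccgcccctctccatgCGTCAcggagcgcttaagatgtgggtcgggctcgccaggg
Nr4a2: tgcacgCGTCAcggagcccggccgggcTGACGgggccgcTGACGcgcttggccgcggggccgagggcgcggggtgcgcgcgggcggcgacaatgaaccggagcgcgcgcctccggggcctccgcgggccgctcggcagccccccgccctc
In the 250 bases upstream, 6 of the 8 genes with an entry in the table held this core on either strand, with 2 in Fos, 1 each in Fosb, Junb and Atf3, and 4 each in Nr4a1 and Nr4a2. Of all 32851 promoters in that table, 17.8% held it. None of the 8 held the whole palindrome TGACGTCA, which 1.55% of all promoters held, or the AP-1 site TGACTCA or TGAGTCA, which 4.46% held. A match is a description of letters and not a bound site.

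The level of these genes varied more between cell classes than between libraries of a class. Which class was highest is given among classes with at least 50 cells in at least 2 libraries. A level is given in CPM, the UMIs of a gene per 1e+06 UMIs of all genes, from the summed cells of that class and library. Across the 8 classes with at least 100 cells in each library, the standard deviation of log2 levels between class means ran from 0.69 for Jund to 1.86 for Nr4a1. Within a class, that between the 3 libraries ran from 0.21 for Jund to 0.66 for Atf3. Jund is the Jun protein that most resting cells keep, and it varied least on both counts.

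**Figure D1:**
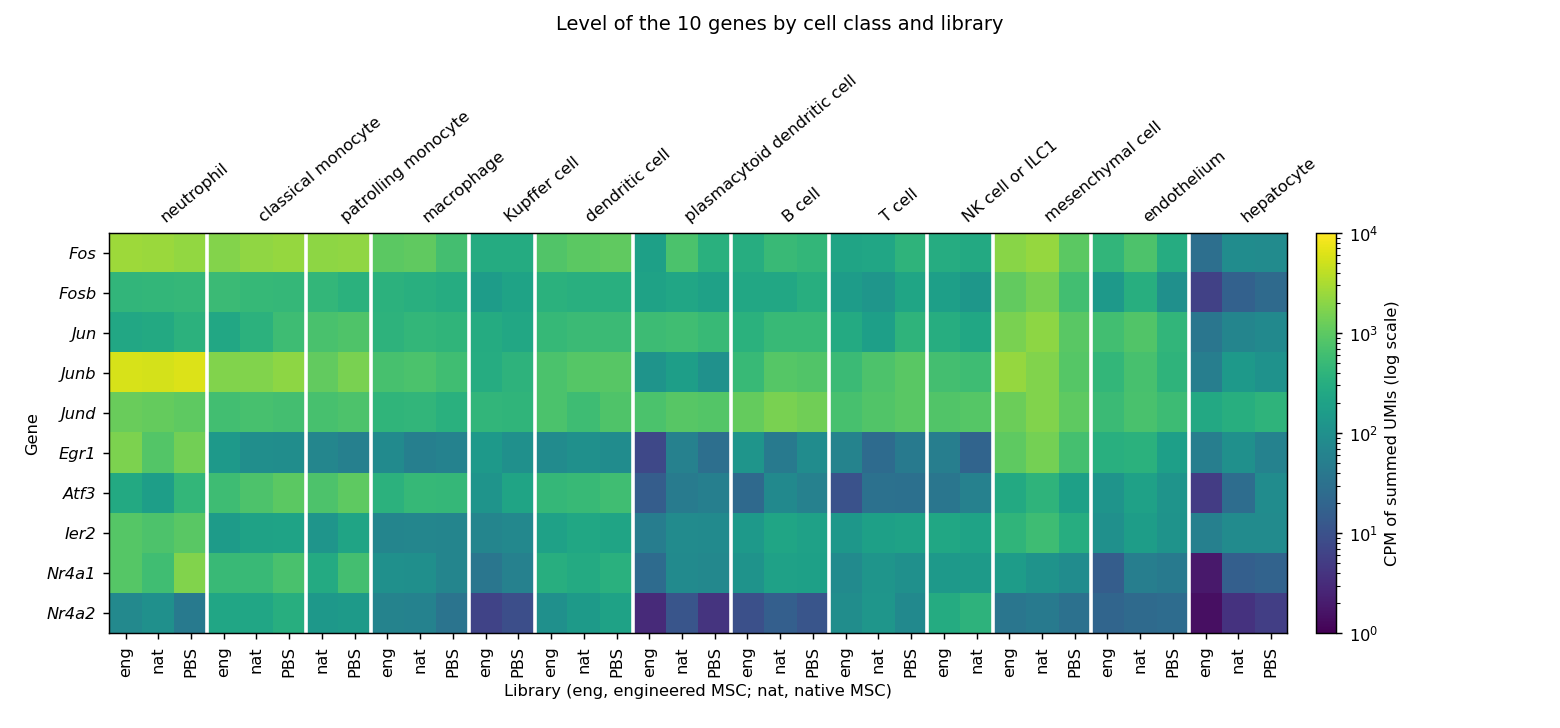
Level of the 10 genes (rows) in 13 cell classes (blocks) and up to 3 libraries (columns, eng for engineered MSC and nat for native MSC), as CPM of summed UMIs on a log colour scale; a library with fewer than 50 cells of a class has no column. Neutrophil-like, monocyte-like and mesenchymal-like cells are bright in most rows and hepatocyte-like cells dark.

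Fos was highest in neutrophil-like cells, at 2585 CPM in the engineered MSC library, 2541 in the native MSC library and 2249 in the PBS library. Classical monocyte-like cells followed with 1815, 2173 and 2305 CPM, and patrolling monocyte-like cells with 2066 CPM in the native MSC library and 2154 in the PBS library. The engineered MSC library held only 17 patrolling cells, which are left out here. Ranges over libraries overlapped between both monocyte classes, and those of classical monocyte-like and neutrophil-like cells overlapped too. Mesenchymal-like cells, a class of 1 cluster that scored best for stellate cells or fibroblasts and 1 that scored best for mesenchymal stromal cells, held 1947, 2363 and 971 CPM. Hepatocyte-like cells were lowest of the 8 compared classes, at 28.7, 87.5 and 85.9 CPM.

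Fosb, a relative of Fos, was highest in mesenchymal-like cells, at 1111 CPM with engineered MSCs, 1523 with native MSCs and 607 with PBS, above every other class with at least 50 cells. Classical monocyte-like cells had 534, 471 and 463 CPM and neutrophil-like cells 423, 444 and 463 CPM, and these ranges overlapped. Over the 41 class and library points with at least 50 cells, Fosb was closest to Fos of all 3957 genes compared, with a Pearson r of 0.91. These points share libraries and free RNA, so r is a description.

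Junb was the most class-bound of the Jun genes. Neutrophil-like cells held 5744 CPM in the engineered MSC library, 5533 in the native MSC library and 6058 in the PBS library, about as much in all 3 and far above every other class of that size. Classical monocyte-like cells came next with 1751, 1733 and 2069 CPM, and hepatocyte-like cells had 50.7, 142 and 111 CPM. Jun, which drives proliferation of hepatocytes in regenerating mouse liver, was instead highest in mesenchymal-like cells, at 1589, 2077 and 951 CPM. Endothelium-like cells had 611, 808 and 426 CPM of Jun, and neutrophil-like cells only 249.7, 271 and 369 CPM. Jund was highest in B cell-like cells, at 1144, 1577 and 1378 CPM, a range that overlapped with that of mesenchymal-like cells at 1265, 1735 and 1010 CPM.

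Egr1 had 2 high classes. Neutrophil-like cells held 1600.0 CPM with engineered MSCs, 838 with native MSCs and 1427 with PBS, and mesenchymal-like cells 1020.4, 1436 and 661 CPM. Endothelium-like cells followed at 334, 361 and 183 CPM. Every other class with at least 50 cells was lower than 183 CPM in each library. Ier2 was likewise highest in neutrophil-like cells, at 886, 769 and 947 CPM, and next in mesenchymal-like cells at 413, 563 and 316 CPM.

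Atf3, which in mouse macrophages restrains cytokine genes, was highest in monocytes and their relatives. Patrolling monocyte-like cells had 752 CPM in the native MSC library and 1017 in the PBS library. Classical monocyte-like cells held 564 CPM in the engineered MSC library, 759 in the native MSC library and 977 in the PBS library. Dendritic-like cells had 464, 489.8 and 602 CPM and macrophage-like cells 377, 478 and 455 CPM. T cell-like cells had far less, with 10.1, 30.6 and 29.8 CPM.

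The nuclear receptors differed from each other. Nr4a1, which patrolling monocytes of the mouse need to develop, was highest in neutrophil-like cells, at 878 CPM with engineered MSCs, 584 with native MSCs and 1756 with PBS. Classical monocyte-like cells had 519, 516 and 699 CPM. Nr4a2 was highest in cells resembling NK cells or ILC1, at 293 CPM in the engineered MSC library and 390 in the native MSC library. Classical monocyte-like cells followed with 231, 231 and 325 CPM of Nr4a2.

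**Figure D2:**
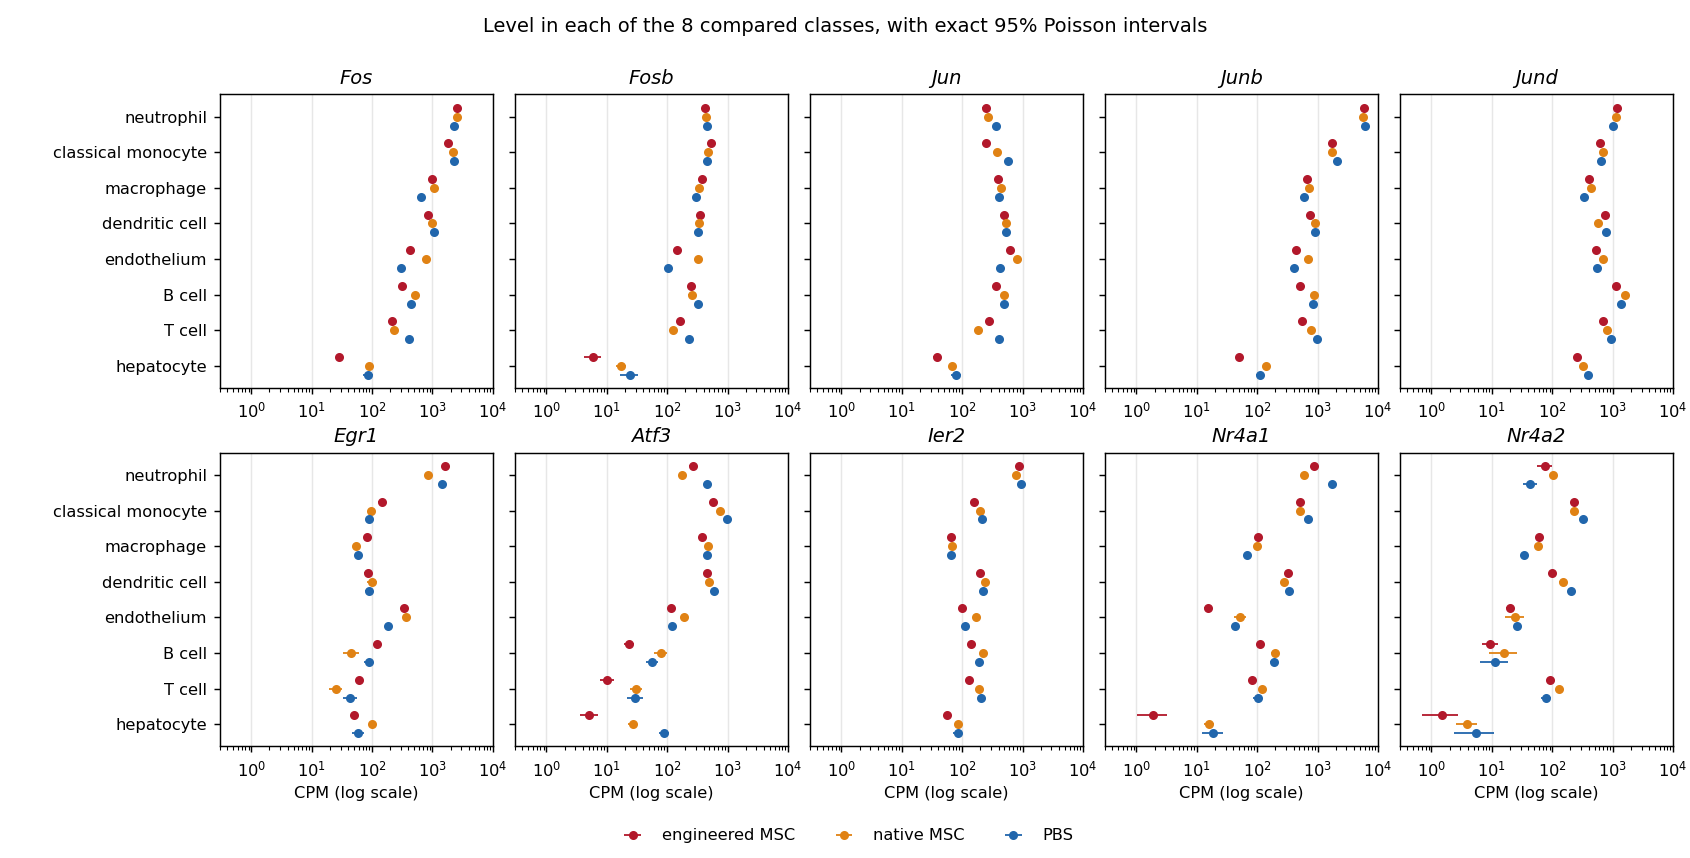
CPM of each gene (panels, log axis) in the 8 compared classes (rows) for the engineered MSC, native MSC and PBS libraries, with exact 95% Poisson intervals that cover counting error only. The 3 libraries of a class mostly lie close together, and Junb in neutrophil-like cells is between 5533 and 6058 CPM.

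The share of cells with a UMI gave the same picture at a matched depth of 1000 UMIs per cell. Fos was seen in 80.0% of neutrophil-like cells in the engineered MSC library, 80.0% in the native MSC library and 77.0% in the PBS library, and without thinning in 86.8%, 92.5% and 87.6%. Cells too shallow for this numbered 7, 92 and 47. Free RNA gives a gene to cells that do not make it, so red cell barcodes serve as a background. At the same thinned depth 3.52% of the erythroid-like barcodes had a Fos UMI in the engineered MSC library (219 before thinning) and 16.7% in the native MSC library (521 before thinning). Their median depth was 3059 and 4533 UMIs, against 2672.5 and 2809 in neutrophil-like cells. Most UMIs of the erythroid-like barcodes were haemoglobin transcripts, which leaves fewer for other genes at a given depth. In the native MSC library these include, beside the main red cell cluster of 419, 54 barcodes in a cluster whose leading genes also held Chil3 and 35 in one whose leading genes also held S100a9. The PBS library had only 2 such barcodes and gives no background of this kind. On average 4.79, 4.47 and 5.10 of the 10 genes were seen in a neutrophil-like cell thinned to 1000 UMIs, against 0.404, 0.738 and 0.808 in a hepatocyte-like cell.

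Levels over a whole library differed between the libraries, and so did the makeup of the libraries. Fos stood at 551 CPM in the engineered MSC library, 1404 in the native MSC library and 978 in the PBS library. Junb stood at 588, 1504 and 963 CPM, Atf3 at 157, 416 and 492 CPM, and Nr4a1 at 90.5, 282 and 247 CPM. Neutrophil-like and classical monocyte-like cells, the classes rich in these genes, were 2.65% and 1.67% of cells in the engineered MSC library, 26.7% and 26.3% in the native MSC library, and 6.42% and 15.7% in the PBS library. In the native MSC library these 2 classes held 20.5% and 46.9% of all Fos UMIs. With 1 mouse in each group, the shares of classes cannot be told apart from how each liver was digested.

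When the 8 classes were given 1 common makeup, each at the mean of its shares of UMIs in the 3 libraries, the gap between the engineered MSC and PBS libraries shrank for these 4 genes. Fos then stood at 964 CPM with engineered MSCs, 1136 with native MSCs and 966 with PBS. Its log2 ratio of engineered MSC over PBS was -0.83 over the whole library and -0.0042 at the common makeup. For Atf3 the same ratio was -1.65 and -0.57, and for Nr4a1 -1.45 and -0.52, so part of the gap remained in these 2 genes. For native MSC over PBS, Nr4a1 turned from 0.19 over the whole library to -0.56 at the common makeup. Of 30 such ratios, 10 genes and 3 comparisons, 10 changed sign. Egr1 over a library was higher with engineered MSCs than with PBS both ways, at 198 against 128 CPM and at 229.7 against 175 CPM.

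**Figure D3:**
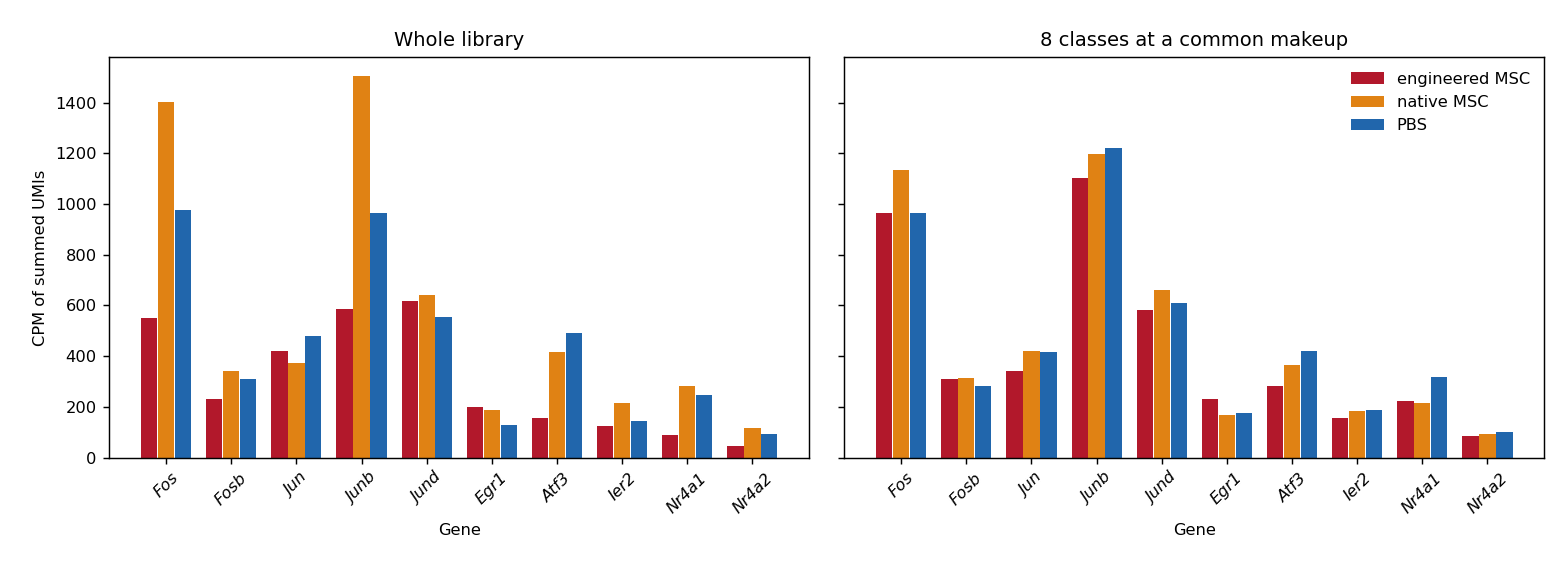
CPM of each gene over all kept cells of a library (left) and over the 8 compared classes at 1 common makeup (right), for the engineered MSC, native MSC and PBS libraries; bars start at 0. Fos spans 551 to 1404 CPM on the left and 964 to 1136 CPM on the right.

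Within classes, the genes were compared in 8 classes, which gives up to 80 pairs of a gene and a class. A pair was counted where both libraries together held at least 20 UMIs, and 2-fold was the size taken as a difference. In the engineered MSC library against the PBS library none of 79 pairs was 2-fold higher, where 8.92% of the pairs of all genes were. There 12 pairs were 2-fold lower, or 15.2%, where 6.6% of all pairs were. Of these 12 pairs, 6 lay in hepatocyte-like cells, and without that class 6 of 70 pairs remained lower, where 5.84% of all pairs were. In the native MSC library against the PBS library 3 of 80 pairs were higher, where 6.24% of all pairs were, and 4 were lower, where 7.29% were. With median-of-ratios scaling these counts were 5 and 4. In the engineered MSC library against the native MSC library 2 of 80 pairs were higher, where 9.29% of all pairs were, and 10 were lower, where 4.54% were. Of these 10 pairs, 6 lay in hepatocyte-like cells. Without that class 4 of 70 pairs remained lower, where 4.23% of all pairs were. All 3 comparisons share libraries. The median log2 ratio of all genes in a class lay between -0.25 and 0.17 over the 3 comparisons and 8 classes, and the ratios below are not corrected for it.

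**Figure D4:**
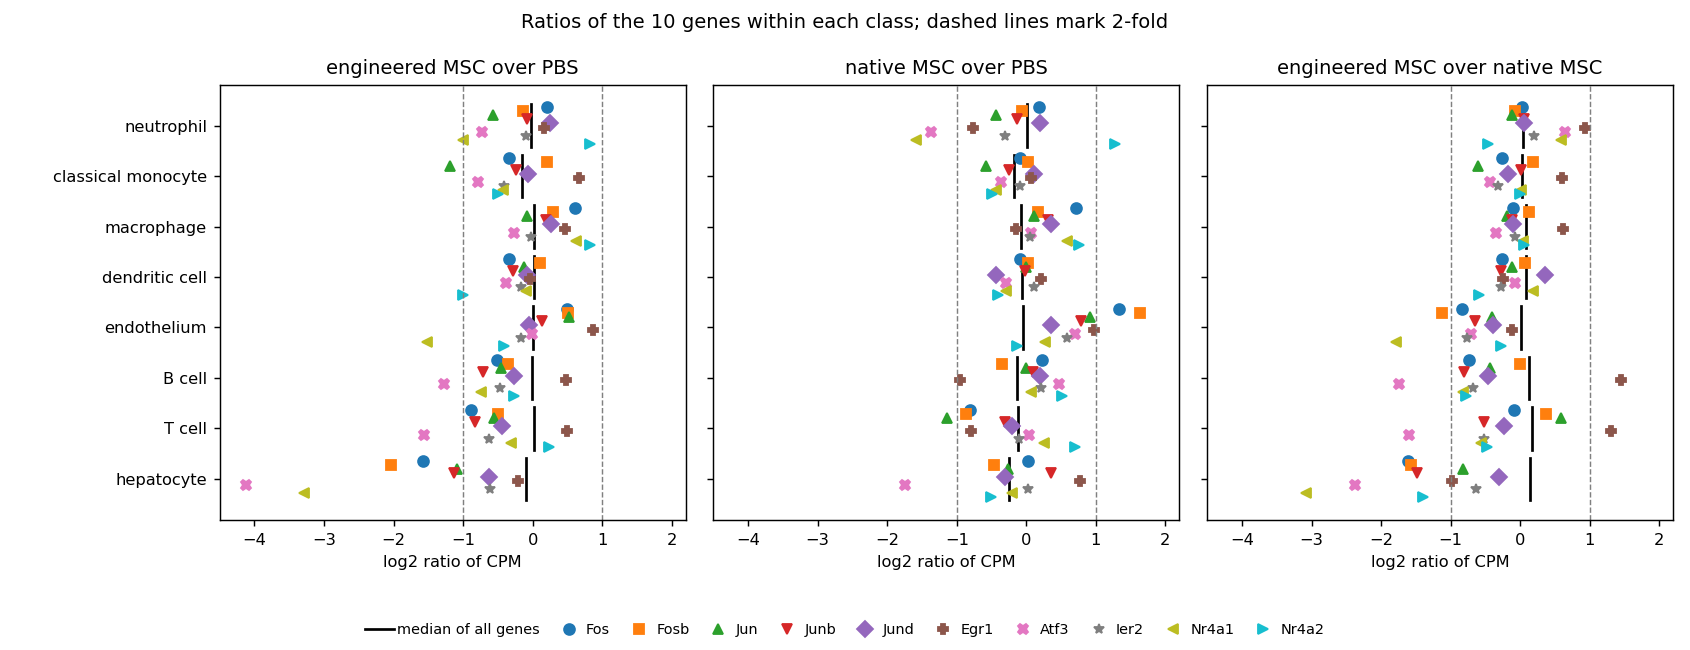
Log2 ratio of CPM of the 10 genes (symbols) within each of the 8 classes (rows) for the 3 comparisons; black bars give the median of all genes in that class and dashed lines mark 2-fold. Atf3 and Nr4a1 in hepatocyte-like cells lie furthest to the left for engineered MSC over PBS, and Fos and Fosb in endothelium-like cells to the right for native MSC over PBS.

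In hepatocyte-like cells all 9 measured genes were lower with engineered MSCs than with PBS, 6 of them 2-fold, with a median log2 ratio of -1.12. Of all 10490 genes measured in these cells, 5726 were lower, 1281 of them 2-fold. Atf3 stood at 5.13 CPM with engineered MSCs, 26.7 with native MSCs and 89.3 with PBS, which is 0.0575 times the PBS level with engineered MSCs (0.0384 to 0.0840) and 0.299 times with native MSCs (0.237 to 0.379). A single cell gave 42 of the 130 Atf3 UMIs of the PBS library, and the PBS level without it was 60.9 CPM. Ddit3, like Atf3 a factor of the integrated stress response, stood at 12.3, 20.7 and 224 CPM in these cells, and at 172 CPM in the PBS library without its highest cell. Nr4a1 had 1.91, 16.1 and 18.5 CPM, Fosb 5.87, 17.5 and 24.0 CPM, and Fos 28.7, 87.5 and 85.9 CPM.

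These hepatocyte levels were set beside the main red cell cluster of the same library, with 219 barcodes in the engineered MSC library and 419 in the native MSC library. Fos in hepatocyte-like cells was 1.14 times its level in the red cell barcodes with engineered MSCs and 1.15 times with native MSCs. The same figures were 1.73 and 1.23 for Atf3, 1.98 and 0.948 for Fosb, and 0.429 and 1.56 for Nr4a1. For Junb they were 1.90 and 1.72, and for Jun 2.82 and 1.99. By these values Fos, Fosb, Junb, Atf3 and Nr4a1 lay within 2-fold of the red cell cluster, or below it, in both MSC libraries. Jun lay more than 2-fold above it with engineered MSCs. The PBS library has no such measure. Over all 521 erythroid-like barcodes of the native MSC library, Fos stood at 563 CPM, Fosb at 149, Atf3 at 167 and Nr4a1 at 120 CPM, all above the hepatocyte-like cells. Haemoglobin transcripts took 859232 CPM of all erythroid-like barcodes in the engineered MSC library and 679509 CPM in the native MSC library. This lowers the CPM of every other gene in them, and unequally between these libraries. Those of the engineered MSC library held only 17 UMIs of Fos, 18 of Junb and 9 of Jun. They held 2 each of Fosb and Atf3, 3 each of Nr4a1 and Egr1, and 4 of Ier2. The ratios to them are imprecise for that reason, and they do not place Fosb, Atf3 or Nr4a1 firmly within 2-fold. The part of free RNA in the hepatocyte levels was not tested. Egr1 and Ier2 stood above the red cell cluster, at 11.5 and 8.44 times for Egr1 and 9.30 and 5.67 times for Ier2, while all 521 barcodes held 59.3 CPM of Egr1 and 78.6 CPM of Ier2, against 100.6 and 85.9 CPM in hepatocyte-like cells of that library. Egr1 had 51.0, 100.6 and 59.1 CPM in hepatocyte-like cells, which is 0.864 times the PBS level with engineered MSCs (0.6804 to 1.11) and 1.70 times with native MSCs (1.36 to 2.16). The engineered MSC library held most of its hepatocyte-like cells (1505 of 1649) in a cluster with 1 cell each of the other libraries. In the cluster they shared, with 144, 818 and 345 cells, Egr1 stood at 108, 100.5 and 56.1 CPM and Jun at 68.6, 66.9 and 80.3 CPM. Within it Egr1 was 1.92 times the PBS level with engineered MSCs (1.44 to 2.58), so its direction differed from that over the class. Atf3 stood at 7.13, 26.7 and 60.9 CPM and Fos at 24.1, 87.5 and 86.5 CPM there.

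Endothelium-like cells, which line the sinusoids and vessels of the liver, gave the only pairs of Fos and Jun genes that were 2-fold higher than with PBS among the 8 classes. With native MSCs Fos was 2.52 times (2.34 to 2.71) and Fosb 3.10 times (2.75 to 3.48) the PBS level. Fos stood at 431 CPM in the engineered MSC library, 766 in the native MSC library and 304 in the PBS library. Fosb stood at 146, 319 and 103 CPM. Jun, Egr1 and Junb were also higher with native MSCs, at 1.90, 1.97 and 1.73 times. Nr4a1 stood apart from them, with 15.1, 52.2 and 43.5 CPM, and was 0.347 times the PBS level with engineered MSCs (0.289 to 0.416).

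The libraries held these cells in different clusters. The cluster that scored best for vascular endothelium, led by Rspo3 and Ccl21a, held 167 of 1824, 37 of 135 and 38 of 1196 endothelium-like cells, and the 167 cells of the engineered MSC library had 1185 CPM of Fos. Of 1824 endothelium-like cells in the engineered MSC library, 1555 lay in a cluster led by Ehd3, Clec4g and Ptprb that had no cell of the PBS library. Fos there stood at 250 CPM. In the sinusoidal cluster that all 3 libraries shared, led by Col4a1, with 102, 94 and 1158 cells, Fos stood at 1172 CPM with engineered MSCs, 692 with native MSCs and 281 with PBS. Egr1 stood at 793, 357 and 162 CPM there, and Nr4a1 at 34.3, 39.4 and 43.3 CPM. Within it Fos was 4.17 times (3.90 to 4.46) and Egr1 4.89 times (4.50 to 5.32) the PBS level with engineered MSCs, against 1.42 times and 1.82 times over the whole class. With native MSCs Fos was 2.46 times there (2.26 to 2.68). Fosb was lower with engineered than with native MSCs over the class, at 0.458 times, and higher in this cluster, at 1.35 times.

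Heat shock genes, which warm digestion is also known to raise, were lower with both MSCs than with PBS in endothelium-like cells. Their summed level was 3379 CPM with engineered MSCs, 4250 with native MSCs and 7676 with PBS. This sum was also highest with PBS in every other compared class but T cell-like cells. Among these classes, Fos too was highest with PBS in classical monocyte-like cells (heat shock sum 3922, 3806 and 4367 CPM) and in dendritic-like cells. It was not highest with PBS in neutrophil-like, macrophage-like, B cell-like, hepatocyte-like or endothelium-like cells. Of the 14 genes of the list, 5 with engineered MSCs and 6 with native MSCs were 2-fold lower than with PBS in endothelium-like cells and none was higher. Of all genes in these cells, 1191 of 13523 and 674 of 11884 were 2-fold lower. Neutrophil transcripts, a mark of free RNA, summed to 18.9, 259 and 41.0 CPM in the same cells, and hepatocyte transcripts to 3897, 784 and 342 CPM. The part of digestion and of free RNA in the endothelial difference was not tested.

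Mesenchymal-like cells were fewer than 100 in both MSC libraries, with 93, 78 and 135 cells, and are set apart for that reason. Fos was 2.01 times the PBS level with engineered MSCs (1.88 to 2.15) and 2.43 times with native MSCs (2.28 to 2.61). Junb was 2.60 times the PBS level with engineered MSCs, at 2312 against 890 CPM, while Jun, Fosb and Egr1 were over 2-fold higher with native MSCs. A cluster led by Tagln and Col1a1 held 69 cells of the engineered MSC library and 93 of the PBS library. Fos there stood at 1732 against 526 CPM and Junb at 2429 against 661 CPM. The second cluster, led by Mgp and Gsn, scored best for mesenchymal stromal cells. It held 24, 54 and 42 cells, so it was present with PBS too, and those of the native MSC library had 4167 CPM of Fos. The clusters thus took different shares of the class in each library.

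In neutrophil-like cells the Fos and Jun genes lay within 1.5-fold of the PBS level in both MSC libraries and the nuclear receptors did not. Nr4a1 was 0.4998 times the PBS level with engineered MSCs (0.456 to 0.547) and 0.332 times with native MSCs (0.316 to 0.350). A Nr4a1 UMI was seen in 48.5%, 39.7% and 72.7% of cells thinned to 1000 UMIs. Atf3 stood at 272, 173 and 451 CPM, the lowest with native MSCs, at 0.385 times the PBS level (0.349 to 0.424). Nr4a2 went the other way, with 75.3, 103 and 42.6 CPM, and was 2.43 times the PBS level with native MSCs (1.85 to 3.23). A single cell gave 18 of the 51 Nr4a2 UMIs of the engineered MSC library, whose level without it was 49.0 CPM.

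Neutrophil-like cells fell into 3 clusters, and Nr4a2 was high in 1 of them. The cluster led by Ptgs2, the inducible cyclooxygenase, and Il1r2, a decoy receptor of interleukin 1, held 71 cells of the engineered MSC library, 1135 of the native MSC library and 500 of the PBS library. Nr4a2 there stood at 284, 278 and 48.3 CPM, which is 5.88 times (3.90 to 8.86) and 5.76 times (4.35 to 7.79) the PBS level. Without the highest cell of each library these levels were 182, 271 and 40.0 CPM. Egr1 stood at 1569, 1592 and 1465 CPM and Nr4a1 at 1250, 1022 and 1906 CPM in the same cells. The cluster led by Retnlg and S100a9 held 1312 cells of the native MSC library and 110 of the PBS library. Nr4a2 stood at 17.0 against 20.0 CPM there, Nr4a1 at 367 against 1144 CPM and Egr1 at 464 against 1296 CPM. The third cluster was nearly all of the engineered MSC library, with 125 cells, 2328 CPM of Egr1 and 3.19 CPM of Nr4a2.

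**Figure D5:**
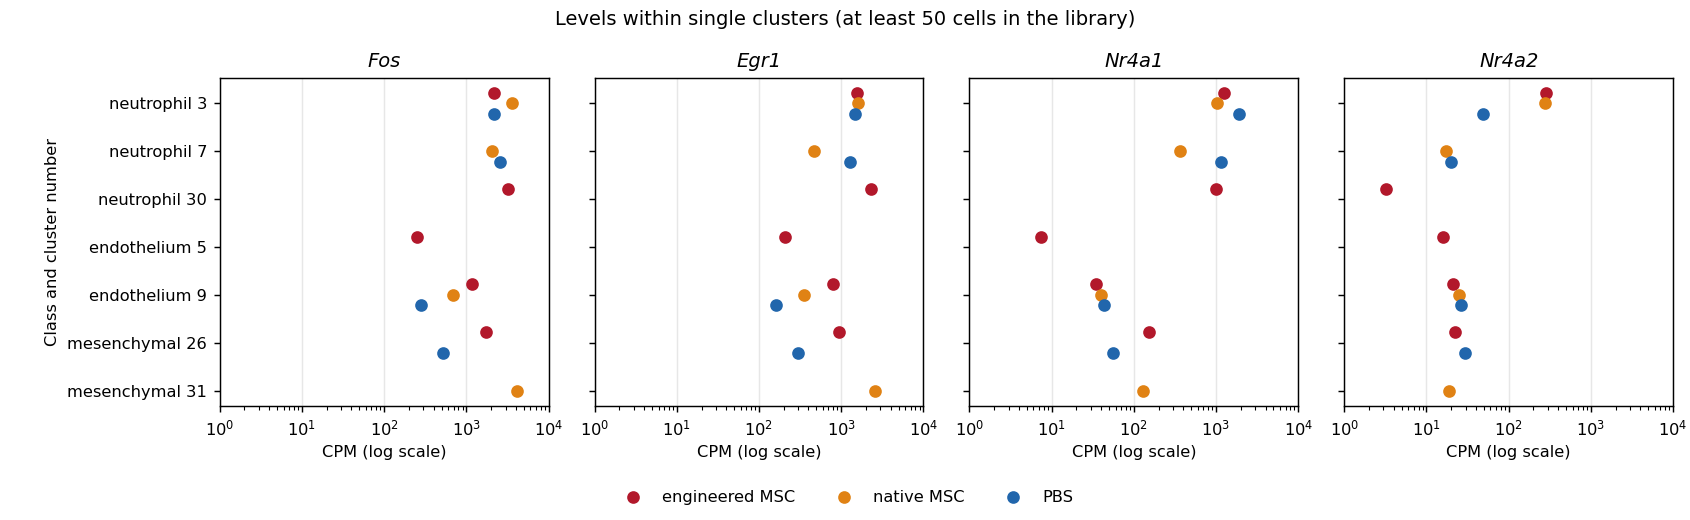
CPM (log axis) of Fos, Egr1, Nr4a1 and Nr4a2 in single clusters of neutrophil-like, endothelium-like and mesenchymal-like cells for each library with at least 50 cells of the cluster. Nr4a2 in neutrophil cluster 3 is at 284 and 278 CPM in the engineered and native MSC libraries and at 48.3 CPM in the PBS library.

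In classical monocyte-like cells 1 pair passed 2-fold and in macrophage-like cells none did. Jun in classical monocyte-like cells stood at 248 CPM with engineered MSCs, 375 with native MSCs and 563 with PBS, and was 0.440 times the PBS level with engineered MSCs (0.396 to 0.488). Fos in the same cells was 0.788 times and 0.943 times the PBS level with engineered and native MSCs. In patrolling monocyte-like cells Nr4a1 stood at 275 CPM with native MSCs against 647 with PBS, or 0.425 times (0.389 to 0.464). Fos in macrophage-like cells stood at 980 CPM with engineered MSCs, 1053 with native MSCs and 639 with PBS, or 1.53 times (1.48 to 1.58) and 1.65 times (1.61 to 1.69). Of 2040 macrophage-like cells of the PBS library, 1979 lay in a cluster with 14 and 29 cells of the engineered and native MSC libraries. The other macrophage cluster, led by Spp1, held 364, 757 and 61 cells. The Fos ratios over the class thus mostly compare different clusters. In Kupffer-like cells, the resident macrophages, Fos was 1.02 times the PBS level with engineered MSCs and Atf3 0.532 times (0.466 to 0.606).

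In lymphocyte-like cells Atf3 was the 1 gene that passed 2-fold with engineered MSCs against PBS. In B cell-like cells 9 of 10 genes were below the PBS level and in T cell-like cells 8 of 10, with median log2 ratios of -0.46 and -0.53. Of all genes, 5709 of 11119 in B cell-like cells and 5625 of 11800 in T cell-like cells were below it. Atf3 was 0.412 times the PBS level in B cell-like cells (0.307 to 0.556) and 0.339 times in T cell-like cells (0.225 to 0.517). Egr1 in B cell-like cells stood at 123 CPM with engineered MSCs, 45.1 with native MSCs and 87.6 with PBS, and in T cell-like cells at 61.7, 25.1 and 43.7 CPM. It was 2.72 times (1.99 to 3.81) and 2.46 times (1.91 to 3.21) the native MSC level, the only pairs 2-fold higher in that comparison among the 8 classes. In NK or ILC1-like cells, 93 and 91 in these libraries, it was 2.71 times (1.27 to 6.05). T cell-like cells lay in clusters of unlike makeup, with 514, 73 and 150 cells in that led by Cd226, 531, 18 and 17 in a cluster led by Lef1 and Themis, 193, 223 and 31 in one led by Ccl5, and 6, 118 and 211 in another led by Lef1. In the Cd226 cluster Atf3 was 0.330 times the PBS level with engineered MSCs (0.184 to 0.605) and Egr1 5.12 times the native MSC level (2.56 to 12.01), and in the Ccl5 cluster Egr1 was 2.07 times the native MSC level (1.43 to 3.02). Jun in T cell-like cells was 0.455 times the PBS level with native MSCs (0.403 to 0.514), but this split by cluster, with 0.26 times (0.192 to 0.346) in the Cd226 cluster and 1.02 times (0.830 to 1.26) in the last of these clusters. Hepatocyte transcripts, a mark of free RNA, summed to 9967, 2477 and 632 CPM in B cell-like cells and to 6185, 1158 and 474 CPM in T cell-like cells. The main red cell clusters held 4.45 CPM of Egr1 and 2.97 of Atf3 in the engineered MSC library and 11.9 and 21.7 in the native MSC library, where all 521 erythroid-like barcodes held 59.3 and 167 CPM. T cell-like cells had 10.1 and 30.6 CPM of Atf3 in these libraries. Of 1607 B cell-like cells of the engineered MSC library, 1592 lay in a cluster with 1 cell of each other library. The part of free RNA and of these clusters in the lymphocyte differences was not tested.

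Other genes of the response were counted in the same 8 classes, and every list stands beside the pairs of all genes. Of those, 8.92% were 2-fold higher and 6.6% lower with engineered MSCs against PBS. With native MSCs against PBS, 6.24% were higher and 7.29% lower. Of the 32 other early response genes, 4 of 241 pairs were 2-fold higher and 42 lower with engineered MSCs against PBS, and 13 of 239 higher and 27 lower with native MSCs. Socs3, a brake on cytokine signalling, had the largest ratio upward in both, at 51.6 CPM with engineered MSCs, 57.2 with native MSCs and 11.5 with PBS in macrophage-like cells. Dusp2, a phosphatase of MAP kinases, stood at 131 CPM with native MSCs against 502 with PBS in neutrophil-like cells. Among 10 other members of the AP-1 family and its partners, 3 of 65 pairs were higher and 10 lower with engineered MSCs, and 5 of 66 higher and 6 lower with native MSCs. Fosl1 was higher in neutrophil-like cells, at 39.9 and 62.7 CPM with engineered and native MSCs against 18.7 with PBS.

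Regulators upstream, among them Srf, Creb1 and MAP kinases, had 0 of 100 pairs higher and 5 lower with engineered MSCs and 0 higher and 8 lower with native MSCs. Of 8 feedback phosphatases and Sprouty genes, 4 of 50 pairs were higher and 8 lower with engineered MSCs and 2 of 53 higher and 6 lower with native MSCs. Of the 9 genes of the integrated stress response, 5 of 56 pairs were higher and 13 lower with engineered MSCs, and 5 of 57 higher and 7 lower with native MSCs. Heat shock genes were 2-fold higher in 1 and lower in 14 of 110 pairs with engineered MSCs, and higher in 1 and lower in 24 of 110 with native MSCs, with median log2 ratios of -0.29 and -0.50. Over the 41 class and library points the mean of the 10 genes and that of the heat shock genes had an r of 0.11, with no p for points that share libraries.

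Of 11 genes that AP-1 is known to drive in wounds, 2 of 57 pairs were higher and 30 lower with engineered MSCs against PBS, with a median log2 ratio of -1.18. For native MSCs against PBS, 10 of 62 pairs were higher and 13 lower. Of the pairs of all genes, 8.92% were higher and 6.6% lower with engineered MSCs, and 6.24% and 7.29% with native MSCs. Of the 30 pairs lower with engineered MSCs, 14 were Spp1, Hmox1 or Ccl2, which macrophages make in quantity and which were singled out after their values were seen. Spp1 stood at 4841, 14018 and 3378 CPM in macrophage-like cells and at 48.7, 226 and 252 CPM in T cell-like cells, and Hmox1 at 1551, 1990.5 and 1575 CPM and at 16.8, 50.5 and 111 CPM. Mmp9 in classical monocyte-like cells had the largest ratio upward with engineered MSCs, at 64.2 against 2.25 CPM. It was also among the neutrophil markers used to name clusters. Neutrophil transcripts in the same cells summed to 1554 CPM with engineered MSCs against 281 with PBS. What RNA of macrophages or neutrophils from outside the cell gives to these pairs was not tested.

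The genes most like each member over the 41 points were mostly no members. Fos was closest to Zfp36, which destabilises cytokine transcripts, at an r of 0.95, Junb to Kdm6b at 0.93, Atf3 to Tgfbi at 0.92, and Nr4a1 to Pim1 at 0.91. Egr1 was closest to Csf1 at 0.91, Nr4a2 to Ifngr1, Jun to Golgb1 and Ier2 to Coq10b at 0.89, and Jund to Aff4 at 0.88. Among the members, Fos and Junb had an r of 0.85 and Egr1 and Nr4a2 one of 0.06.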

How the data were processed

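The submitters' processing notes name Cell Ranger 7.1.0 and the build GRCm39. The deposited values are whole counts, UMIs for each gene and barcode, with no normalization. Cells needed at least 200 genes, 500 UMIs and at most 20% mitochondrial UMIs. The highest Scrublet scores were removed at 0.8% per 1000 barcodes. The libraries were clustered together in scanpy 1.11.5 (2000 variable genes, 30 components, 15 neighbours, Leiden resolution 1, leidenalg 0.10.2), leaving 82 early response and stress genes, the 10 among them, out of the variable genes. Of 38 clusters 3 stayed unnamed, and names resemble a type by transcripts. UMIs were summed by class and library. Levels have exact Poisson, ratios exact conditional binomial and shares Clopper-Pearson 95% intervals, which treat UMIs as independent. Free RNA was not subtracted. All 10 members are named, and other genes come from lists as those with the largest ratios among at least 50 UMIs. Members and lists were chosen with earlier results of these data known. Calculations were tested on simulated data.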

Additional observations from a re-analysis of the deposited data

Results flagged for a closer look

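Opposite differences in 2 classes, both more than 1.5-fold by their intervals, were found for 6 combinations of a gene and a comparison. Each rests on 1 library per group, and the difference between classes was not tested. With native MSCs over PBS, endothelium-like cells were higher and T cell-like cells lower for Fos (log2 ratios 1.33 and -0.81, apart by 2.14), Fosb (1.63 and -0.87, apart by 2.50) and Jun (0.92 and -1.14, apart by 2.06). Jun was not lower, though, in the T cell cluster led by Lef1 with 118 cells of the native MSC library and 211 of the PBS library. In the same comparison Egr1 was higher in endothelium-like and lower in neutrophil-like cells (0.98 and -0.77, apart by 1.75). In the neutrophil cluster led by Ptgs2, however, Egr1 was not lower with native MSCs. The cluster led by Retnlg, where it was lower, held 1312 of 2448 neutrophil-like cells with native MSCs and 110 of 612 with PBS. With engineered MSCs over PBS, Nr4a2 was higher in macrophage-like and lower in dendritic-like cells (0.82 and -1.0002, apart by 1.82). Of 2040 macrophage-like cells with PBS, 1979 lay in a cluster with 14 cells of the engineered MSC library. With engineered over native MSCs, Egr1 was higher in B cell-like and lower in hepatocyte-like cells (1.44 and -0.98, apart by 2.42). Of the hepatocyte-like cells with engineered MSCs, 1505 of 1649 lay in a cluster of their own, and in the shared cluster Egr1 stood at 108 against 100.5 CPM, or 1.07 times (0.876 to 1.30).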

How the results depend on the processing

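No paired analysis was possible because each group is 1 library and the labels carry no replicate numbers, and for the same reason no library could be left out. Of the 31 ratios past 2-fold, none changed direction under other filters, scalings, weights and clusterings, which gave 350 values. Of these, 316 stayed within the interval of the value given and 34, among them 17 with doublets kept, moved out of it. The 316 include 31 values with no count minimum and 29 with at least 50 UMIs. Those could not move, because a count minimum chooses which pairs enter and leaves the ratio as it is. With doublets kept, 1 pair was higher for native MSC over PBS and 1 for engineered over native MSC. The last count was also 1 with the early response genes used in clustering and at a resolution of 0.5, where B cell-like and macrophage-like cells were no longer compared. At a resolution of 2, where hepatocyte-like cells dropped out, 4 pairs were lower for engineered MSC over PBS and 4 for engineered over native MSC. Without hepatocyte-like cells (added after seeing the data) these counts were 6 and 4 of 70 pairs, where 5.84% and 4.23% of all pairs were lower. Median-of-ratios scaling gave 5 higher pairs for native MSC over PBS. At a threshold of 1.5-fold, 6 pairs were higher and 21 lower for engineered MSC over PBS (of all pairs 16.1% and 15.5%), 13 and 9 for native MSC over PBS (13.02% and 18.5%), and 7 and 24 for engineered over native MSC (19.3% and 11.5%). Within single clusters (added after seeing the data) 3 log2 ratios turned round: Jun in T cell-like cells to 0.031 for native MSC over PBS, Nr4a2 in neutrophil-like cells to -0.23 for native MSC over PBS, and Fosb in endothelium-like cells to 0.44 for engineered over native MSC. Others kept their direction but moved out of the interval: 6 in the shared hepatocyte cluster, where 7 stayed, and 4 in the Ptgs2 neutrophil cluster, where none did. So did 2 in the Col4a1 endothelial cluster (2 stayed), 2 in the Cd226 T cell cluster (2 stayed) and 1 in the Retnlg neutrophil cluster (1 stayed). The values of the other clusters stayed, apart from that of Jun. At a common makeup the whole-library log2 ratio of Nr4a1 for engineered over native MSC turned from -1.64 to 0.043. Of the other 9 that turned, those for engineered MSC over PBS were Fosb (-0.41 to 0.14) and Jund (0.15 to -0.064), that for engineered over native MSC was Jun (0.17 to -0.30), and those for native MSC over PBS were Jun (-0.36 to 0.020), Junb (0.64 to -0.030), Egr1 (0.54 to -0.071), Ier2 (0.60 to -0.022), Nr4a1 (0.19 to -0.56) and Nr4a2 (0.33 to -0.11). The causes were not tested.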

Other observations

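Classes with fewer than 50 cells in every library also held much of these genes. In cholangiocyte-like cells, the lining of the bile ducts, with 39, 4 and 16 cells, Jun stood at 1924 CPM in the engineered MSC library, 1552 in the native MSC library and 2724 in the PBS library, and Jund at 2161, 2414 and 2390 CPM. The 18 cells of the engineered MSC library that resembled basophils or mast cells had 4729 CPM of Junb and 3975 of Jun. Mesothelial-like cells, the cover of the liver, with 25, 20 and 34 cells, had 452, 801 and 1201 CPM of Fos. Plasma-like cells, with 44, 7 and 11 cells, had 1179, 832 and 1157 CPM of Jund and 127, 137 and 71.0 CPM of Junb. These levels rest on few cells and carry no comparison.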
